A study of Caenorhabditis elegans with 15 samples.

Results

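Epidermal growth factor (EGF) signalling in *Caenorhabditis elegans* was described here through 9 genes: the ligand *lin-3*, its receptor *let-23*, the phospholipase C gene *plc-3*, the IP3 receptor gene *itr-1*, and *let-60*, *lin-45*, *mek-2*, *mpk-1* and *lin-1* of the Ras and MAP kinase arm. The members were every probe set annotated to 1 gene that is one of these 9, which gave 17 of the 22548 probe sets tested and 9 of 17118 genes. Of the 17, 10 hold probes that more than 1 transcript shares, marked _s_at in their names. A further 1 probe set, which names *lin-1* together with a second gene, was left out by that rule. The measurements are deposited log2 expression values from Affymetrix arrays of whole-animal RNA of the wild-type strain N2, which carries no introduced allele. There were 5 arrays for each of 3 stages, 15 in all, and RNA came from batches of 20 hermaphrodites fed DA837 bacteria, grown at 20 °C and collected at 22.5 °C. L4, the last larval stage, was sampled 42 h after feeding. L4-lethargus, the quiescent period that ends it, was sampled at 45 to 50 h, when pharyngeal pumping had been absent for 30 to 40 min. Adult animals were labelled young adults, and the sources used here do not give their age in hours.

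LIN-3 binds LET-23, a receptor tyrosine kinase. In vulval precursor cells the receptor acts through LET-60 (Ras), LIN-45 (Raf), MEK-2 (MEK) and MPK-1 (ERK), and the ETS-domain protein LIN-1 is a nuclear target that holds back vulval fate until it is phosphorylated. In the ALA neuron, LET-23 acts through PLC-3, which makes IP3 and diacylglycerol, and this branch can stop feeding and movement. IP3 opens the calcium channel ITR-1, which also serves ovulation and defecation. The MAP kinase arm also acts in the germ line, in meiotic progression and oocyte growth.

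The stage labels were checked against stage marker genes. The adult collagen gene *col-19* had 7.11 ± 0.26 in L4, 13.19 ± 0.25 in lethargus and 13.36 ± 0.30 in Adult, and *lin-42*, which times larval development, had 10.45 ± 0.13, 8.97 ± 0.29 and 7.62 ± 0.09 (mean ± SD of 5 arrays, log2). *vit-2* had 9.91 ± 0.27, 13.24 ± 0.04 and 13.34 ± 0.05, and *dpy-7* had 12.24 ± 0.32, 6.90 ± 0.59 and 6.78 ± 0.10. Of these 4 markers, 4 were called between lethargus and L4. Between lethargus and Adult 1 was called, *lin-42*, and 3 were not, so the check separated those stages through *lin-42* alone. Markers of tissues in the pools also moved: 10 of 10 oocyte markers were higher in lethargus than in L4 and again in Adult, and their mean level per array ran from 8.34 to 9.68 in L4, 10.58 to 11.23 in lethargus and 12.16 to 12.26 in Adult. Of 10 neuron markers 0 were called between lethargus and L4 and 8 were lower and 1 higher in Adult than in L4. Their mean level per array ran from 9.57 to 9.81 in L4, 9.62 to 9.83 in lethargus and 8.63 to 9.02 in Adult. Of 7 intestine markers 6 were lower in Adult than in L4. The mean RNA yield was 22.3 ng in L4, 18.6 ng in lethargus and 75.3 ng in Adult. In whole animals, fewer cells of a type, less RNA per cell and more RNA from other tissues cannot be told apart. The part of tissue makeup in the results below was not tested.

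Adult replicate 2 stood apart. It was the Adult array farthest from the stage median for 15 of 17 member probe sets, with a median distance of 0.68 in log2, against 0.03 to 0.05 for 3 of the other Adult arrays and 0.09 for the fourth. Its mean correlation with the other Adult arrays over all probe sets was 0.987, against 0.994 to 0.995 for the other 4. This was not particular to it, since L4-lethargus replicate 1 also had 0.987 within its stage, against 0.992 to 0.994 for the others. L4 replicates 2 and 3 had 0.989. L4-lethargus replicate 1 was the farthest of its stage for 8 probe sets, L4 replicate 3 for 6, and L4 replicates 2 and 5 for 5 each. Where a member's call changed without Adult replicate 2, both values are given.

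**Figure D1:**
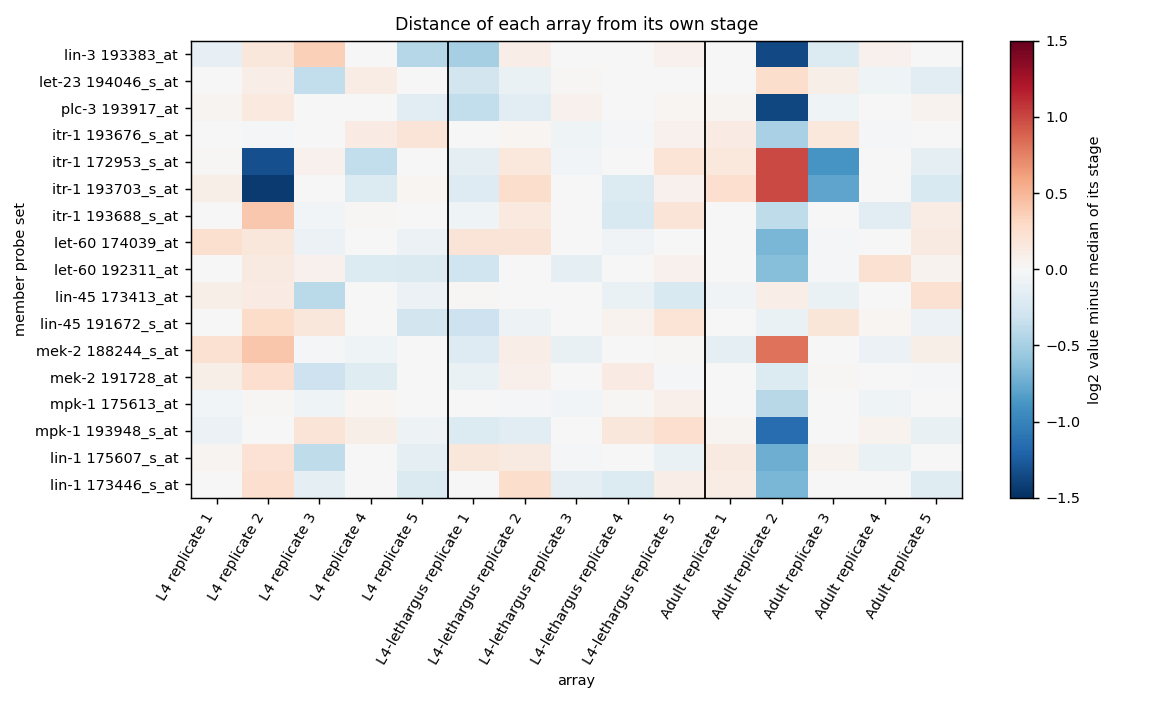
Heat map of the log2 value of each of 17 member probe sets (rows) on each of 15 arrays (columns), minus the median of that probe set in the array's own stage; red is above and blue below the median, and black lines divide the stages. The column of Adult replicate 2 carries strong colour in most rows, while the other Adult columns are pale apart from 2 *itr-1* rows in replicate 3.

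Across the 3 pairs of stages, *lin-3* and 1 *lin-45* probe set were ordered L4, lethargus, Adult from low to high, with every pair of stages called. *mek-2*, read by 191728_at, was lowest in lethargus, and *lin-1* was lower in Adult than in both younger stages. *itr-1* was also lower in Adult in its brightest probe set, 193676_s_at, while in its other probe sets these calls were fragile or absent. *let-23* was modestly highest in lethargus on the values as deposited, but its call against Adult was lost under 14 of 28 alternatives. *let-60* was not called in these comparisons on the values as deposited. A difference counts as called where its limma p, adjusted over all 22548 probe sets, was 0.05 or below. Between lethargus and L4, 3 member probe sets were higher, 1 was lower and 13 were not called, so that 4 of 17 were called (23.5%) beside 30.9% of all probe sets, of which 15.6% were higher and 15.3% lower. Between lethargus and Adult, 6 were higher in lethargus, 4 lower and 7 not called, which is 10 of 17 beside 57% of all probe sets, 25.3% higher and 31.7% lower. Between Adult and L4, 4 were higher in Adult, 4 lower and 9 not called, which is 8 of 17 beside 59.4%, 31.4% higher and 28% lower. In each comparison the members were called about as often as probe sets at large or less often, and the counts say nothing particular about the pathway.

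The median member difference was 0.16 for lethargus minus L4, 0.06 for lethargus minus Adult and 0.04 for Adult minus L4, beside 0.00, -0.09 and 0.08 over all probe sets (log2). The splits by direction against Adult depended on how arrays were scaled. With each array centred on its median, 2 member probe sets were higher in lethargus and 8 lower, and scaling to the spiked hybridisation controls gave the same 2 and 8. Of all probe sets, 72.6% and 71.4% were called under these scalings, and 25% and 23.6% of those called were higher in lethargus. Between Adult and L4, the same scalings gave 6 higher and 3 lower and 9 higher and 3 lower, in place of 4 and 4. There 71.2% and 75.6% of all probe sets were called, and 69.7% and 76.7% of those called were higher in Adult. Those scalings moved the median of all probe sets for lethargus minus Adult to -0.34 and -0.37, so a member change near that size has no settled direction relative to total signal.

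**Figure D2:**
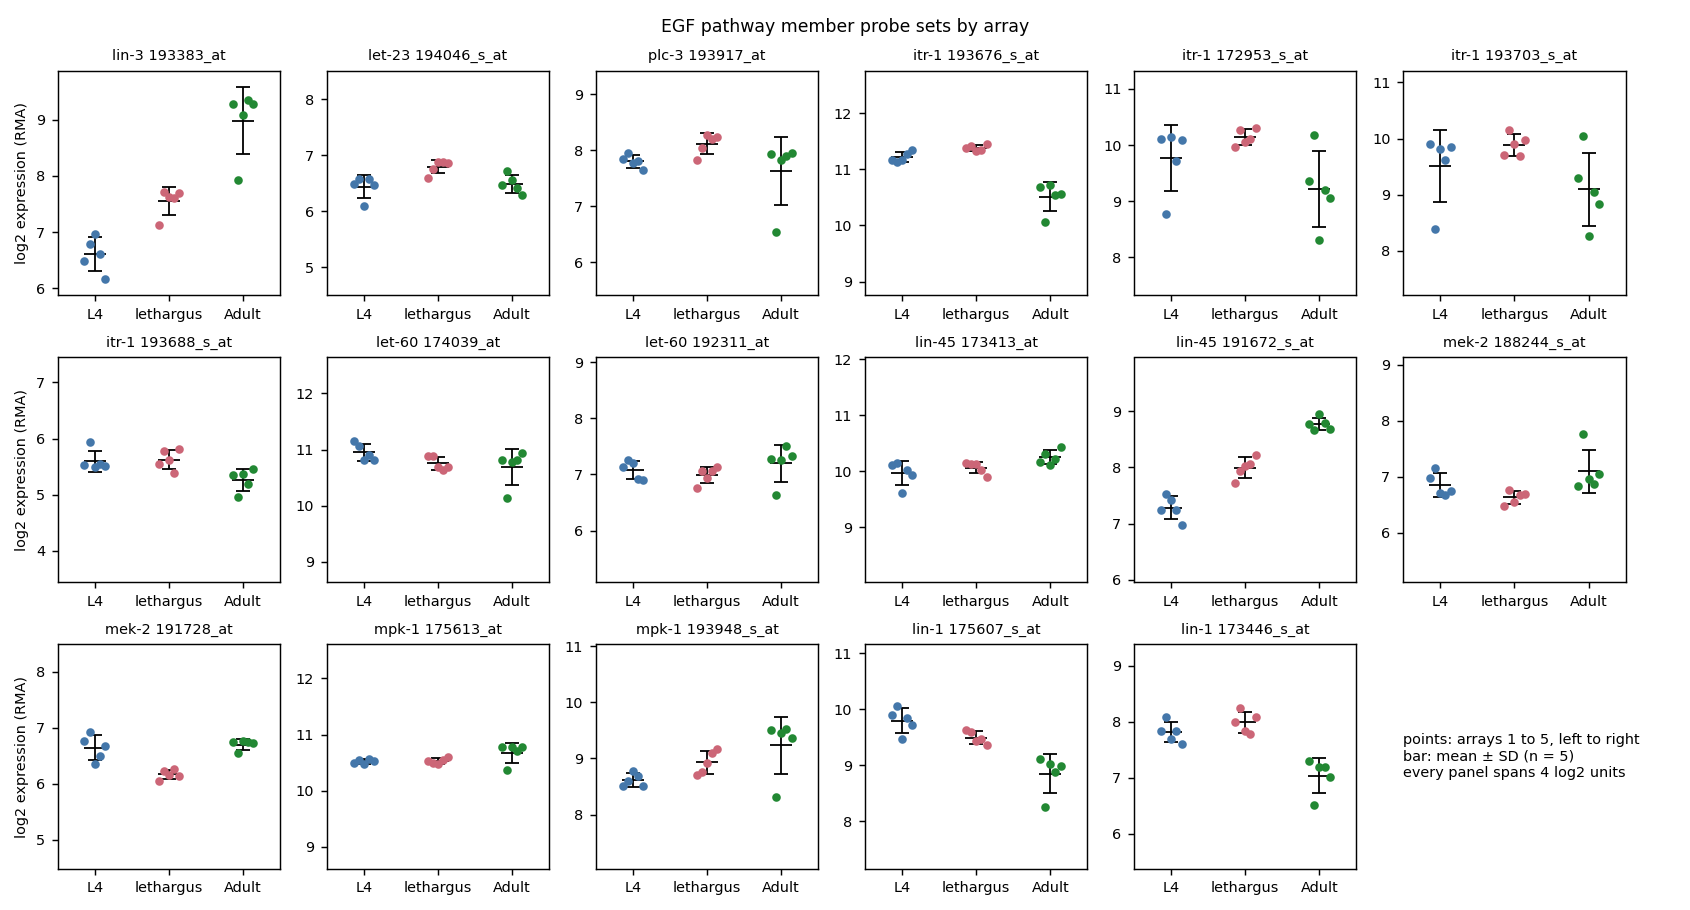
Log2 expression (vertical axis, RMA values, 4 log2 units in every panel) of the 17 member probe sets in the 3 stages; points are arrays 1 to 5 from left to right, and bars are mean ± SD (n = 5). *lin-3* and *lin-45* 191672_s_at climb over the stages, *mek-2* 191728_at dips in lethargus, and one Adult point, replicate 2, lies off in most panels.

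**Figure D3:**
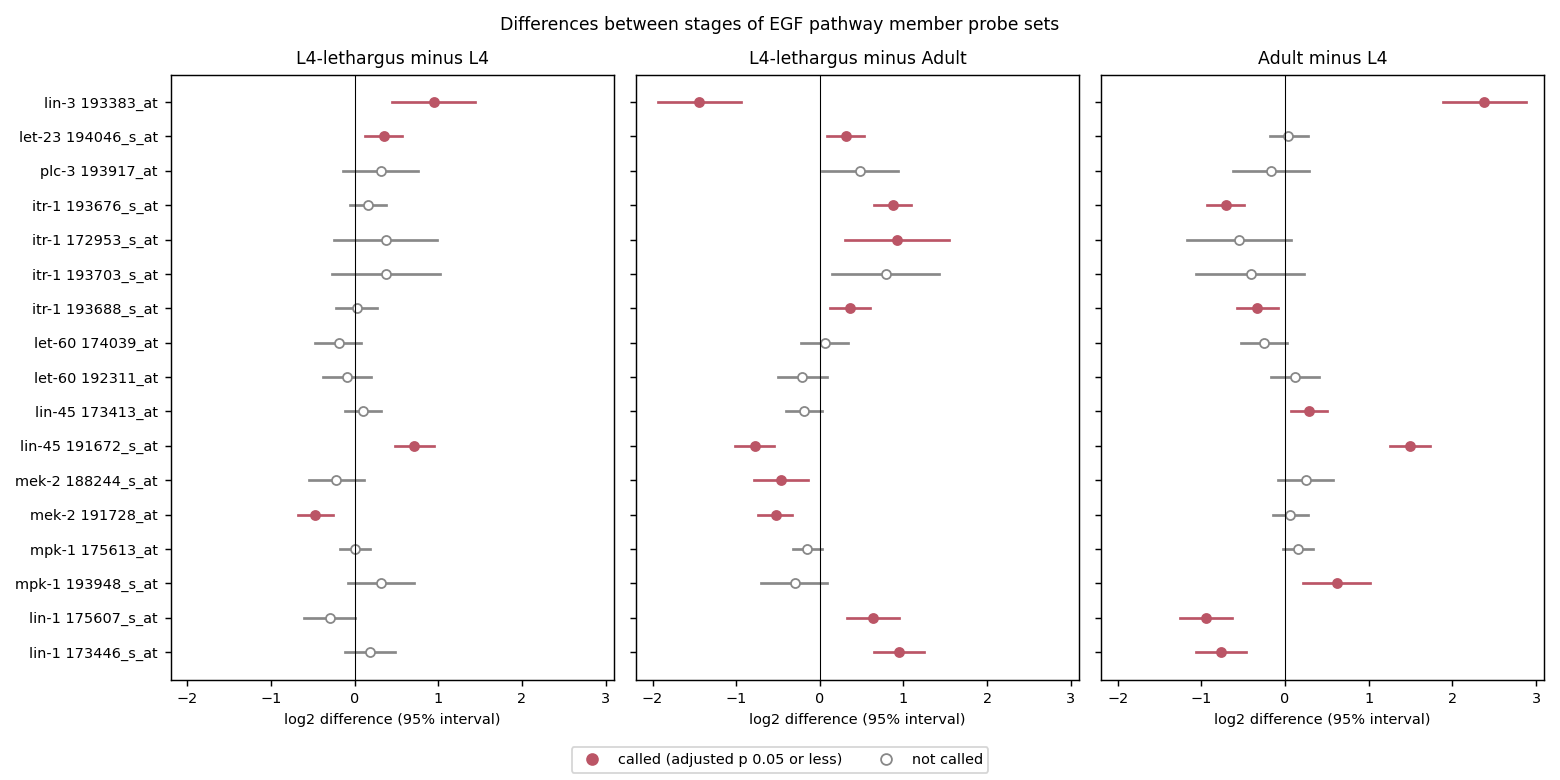
Log2 difference between stages (horizontal axis) with its 95% interval for the 17 member probe sets, in 3 panels for lethargus minus L4, lethargus minus Adult and Adult minus L4; filled red points were called and open grey points were not. In each panel the largest difference is that of *lin-3*, at 0.95, -1.44 and 2.38 from left to right.

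The ligand gene *lin-3* encodes the EGF-like signal that the anchor cell sends to the vulval precursors. Its probe set, 193383_at, read 6.49, 6.78, 6.97, 6.61 and 6.17 in the 5 L4 arrays. It read 7.12, 7.72, 7.62, 7.61 and 7.69 in lethargus and 9.28, 7.93, 9.09, 9.35 and 9.28 in Adult (log2). No 2 stages overlapped, and the low Adult value was replicate 2. The stage means were 6.60 ± 0.30, 7.55 ± 0.24 and 8.99 ± 0.60 (mean ± SD of 5 arrays). *lin-3* was 1.93-fold higher in lethargus than in L4 (log2 difference 0.95 ± 0.233 SE, adjusted p = 0.00826). It was 2.7-fold lower in lethargus than in Adult (-1.44 ± 0.233 SE, adjusted p = 9.95e-05) and 5.22-fold higher in Adult than in L4 (2.38 ± 0.233 SE, adjusted p = 2.82e-07). These 3 calls held in the tested alternatives, apart from a required log2 difference of at least 1, which the step from L4 to lethargus misses. The lethargus level did not differ detectably from the midpoint of the other stages (-0.24, adjusted p = 0.683), and without Adult replicate 2 it lay below that midpoint (-0.38, adjusted p = 0.0397, with a range of 0.0397 to 1 over the alternatives). The oocyte markers described above had the same order of stages.

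The receptor gene *let-23* changed far less. Probe set 194046_s_at read 6.48, 6.58, 6.10, 6.58 and 6.46 in L4 and 6.60, 6.76, 6.88, 6.87 and 6.86 in lethargus. In Adult it read 6.46, 6.72, 6.55, 6.41 and 6.29 (log2). Every lethargus array was above every L4 array, by 0.02 at the closest, and Adult replicate 2 lay above lethargus replicate 1. *let-23* was 1.28-fold higher in lethargus than in L4 (0.35 ± 0.105 SE, adjusted p = 0.0291) and 1.24-fold higher than in Adult (0.31 ± 0.105 SE, adjusted p = 0.0349). Both calls were fragile. The call against L4 was lost under 9 of 28 alternatives, among them median-centring (adjusted p = 0.0732), with adjusted p from 0.0063 to 0.076 in all. The call against Adult was lost under 14 of 28, and the difference was 0.06 with median-centring and 0.03 with scaling to the hybridisation controls. Adult and L4 did not differ detectably (0.04, 95% interval -0.18 to 0.27, adjusted p = 1), although scaling to the hybridisation controls gave 0.39 (adjusted p = 0.00409).

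The change of the ligand relative to its receptor was tested as the difference of the 2 log2 values within each array, which is untouched by any shift of a whole array. This difference was 0.16 ± 0.43 in L4, 0.76 ± 0.16 in lethargus and 2.50 ± 0.74 in Adult (mean ± SD of 5 arrays). It differed by 0.60 between lethargus and L4 (exact permutation p = 0.0397, two-sided, adjusted p = 0.0397 over the 3 comparisons), where L4 replicate 3, at 0.86, lay among the lethargus arrays. It was higher in Adult than in lethargus by 1.74 and higher in Adult than in L4 by 2.34. Both of those exact permutation p-values were 0.00794, the smallest that 5 arrays against 5 allow (adjusted p = 0.0119). The *lin-3* value thus moved upward relative to the *let-23* value from L4 to lethargus and on to Adult, although the step from L4 to lethargus lost its call when L4 replicate 1, 2, 4 or 5 or lethargus replicate 2 was left out.

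**Figure D4:**
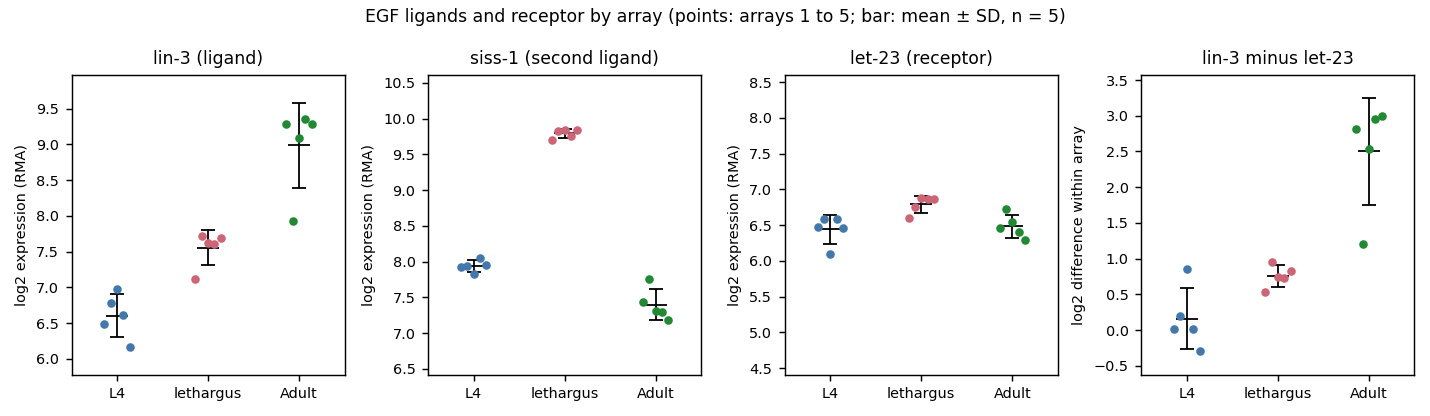
Log2 expression of *lin-3*, *siss-1* and *let-23* and the difference of *lin-3* and *let-23* within each array (vertical axes, 4.2 log2 units each) by stage; points are arrays 1 to 5 and bars are mean ± SD (n = 5). *lin-3* is highest in Adult, *siss-1* is highest in lethargus with all 5 arrays between 9.70 and 9.84, and *let-23* stays between 6.10 and 6.88.

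The other EGF-family ligand measured, *siss-1*, whose product acts on LET-23 in stress-induced sleep, had another order of stages. Its probe set, 184744_at, read 7.93, 7.94, 7.83, 8.05 and 7.95 in L4 and 9.70, 9.83, 9.84, 9.76 and 9.84 in lethargus. The Adult values were 7.44, 7.76, 7.31, 7.30 and 7.19 (log2). The lethargus arrays stood well clear of both other stages. *siss-1* was 3.61-fold higher in lethargus than in L4 (adjusted p = 2.97e-10) and 5.25-fold higher than in Adult (adjusted p = 1.09e-11). Of the other genes listed for ligand release, the metalloprotease gene *adm-4* was lower in lethargus than in L4 (-0.35, adjusted p = 0.00317) and than in Adult (-0.77, adjusted p = 4.72e-07). The rhomboid protease gene *rom-1*, whose product cleaves LIN-3, was lower in Adult than in L4 (-0.69, adjusted p = 0.000139).

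The phospholipase C gene *plc-3*, of the branch that acts in ALA, was called in none of the comparisons on the deposited values of all arrays. Probe set 193917_at read 7.84, 7.95, 7.78, 7.80 and 7.64 in L4 and 7.83, 8.04, 8.27, 8.20 and 8.24 in lethargus. Adult arrays gave 7.94, 6.54, 7.83, 7.90 and 7.95 (log2). Adult replicate 2 was more than 1 log2 unit below every other array, and the 2 younger stages overlapped through lethargus replicate 1. The difference between lethargus and L4 was 0.31 (95% interval -0.14 to 0.76, adjusted p = 0.576) and that between lethargus and Adult 0.48 (95% interval 0.03 to 0.93, adjusted p = 0.117). Without Adult replicate 2, which had set much of the shared spread, the difference between lethargus and L4 was the same 0.31 and was called (adjusted p = 0.0184, with a range of 0.000938 to 0.842 over the alternatives). With all arrays in, it was also called with array quality weights (0.38, adjusted p = 0.0245) and by a doubled, unadjusted exact permutation p (0.0476). Lethargus lay above the midpoint of the other stages by 0.40 (adjusted p = 0.174), and by 0.26 without Adult replicate 2 (adjusted p = 0.0201). The difference of Adult and L4 turned from -0.17 to 0.10 without that array and was not called either way.

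The calcium channel gene *itr-1* was read by 4 probe sets, all of which share probes among transcripts. The brightest, 193676_s_at, read 11.17, 11.14, 11.17, 11.28 and 11.35 in L4 and 11.38, 11.41, 11.32, 11.35 and 11.45 in lethargus. In Adult it read 10.68, 10.07, 10.72, 10.54 and 10.56 (log2). Every Adult array was below every array of both younger stages, which overlapped each other. *itr-1* was 1.83-fold higher in lethargus than in Adult (0.87 ± 0.105 SE, adjusted p = 4.07e-06) and 1.63-fold lower in Adult than in L4 (-0.71 ± 0.105 SE, adjusted p = 3.17e-05). Lethargus and L4 differed by 0.16 (95% interval -0.06 to 0.38, adjusted p = 0.533). Lethargus lay above the midpoint of the other stages by 0.52 (adjusted p = 0.000405).

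The next probe set of *itr-1*, 172953_s_at, read 10.11, 8.77, 10.15, 9.72 and 10.09 in L4 and 9.96 to 10.31 in lethargus. The Adult values were 9.35, 10.18, 8.30, 9.19 and 9.05 (log2). L4 replicate 2 was far below its stage, Adult replicate 2 far above and Adult replicate 3 below, and 193703_s_at showed the same 3 arrays apart, at 8.38, 10.04 and 8.26. The difference of 3′ and 5′ signal of the GAPDH control, a sign of RNA quality, was 0.32 in L4 replicate 2 against 0.02 to 0.13 in the other L4 arrays. It was 0.49 in Adult replicate 3 against 0.17 to 0.28 in the other Adult arrays. The other controls did not all set these arrays apart. L4 replicate 2 was highest of its stage for catalase (3.71) and actin (0.19) but not for ubiquitin (4.60, others 4.55 to 4.81). Adult replicate 3 was highest for actin (0.24). Adult replicate 2 lay above it for catalase (3.00 against 2.89) and ubiquitin (4.56 against 4.38). The part of RNA quality in these values was not tested. Lethargus was higher than Adult by 0.92 for 172953_s_at (adjusted p = 0.0235) and by 0.79 for 193703_s_at (adjusted p = 0.0648). The first call was lost under 9 of 28 alternatives and the second difference was called under 8. Without Adult replicate 3 the first was 0.69 (adjusted p = 0.0723). Without Adult replicate 2 the second was 1.03 (adjusted p = 0.00895). The Adult minus L4 difference of 172953_s_at was -0.55 (adjusted p = 0.217), and -0.79 without Adult replicate 2 (adjusted p = 0.0283). Against the midpoint, 172953_s_at went from 0.65 (adjusted p = 0.091) to 0.77 without that array (adjusted p = 0.0158), and 193703_s_at from 0.58 (adjusted p = 0.158) to 0.70 (adjusted p = 0.0382). The dimmest probe set, 193688_s_at, lay at 5.60 ± 0.18 in L4 and 5.62 ± 0.17 in lethargus (mean ± SD of 5 arrays), just above the background bound of 5.56. Its Adult mean of 5.26 ± 0.19 was under that bound, so *itr-1* read there was at least 1.04-fold higher in lethargus than in Adult (adjusted p = 0.0239), a call that median-centring and 7 other alternatives removed, among them leaving out Adult replicate 2 (adjusted p = 0.061). It was at least 1.02-fold lower in Adult than in L4 (adjusted p = 0.0348), but 11 of 27 alternatives removed that call, including median-centring (adjusted p = 0.737), array weights (adjusted p = 0.0752) and leaving out Adult replicate 2 (adjusted p = 0.0904) or L4 replicate 2 (adjusted p = 0.0993). With scaling to the hybridisation controls the difference was 0.01 in the other direction.

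The Ras gene *let-60* was read by 2 probe sets and was called in no comparison on the deposited values of all arrays. Probe set 174039_at had 10.95 ± 0.15 in L4, 10.76 ± 0.12 in lethargus and 10.69 ± 0.32 in Adult, where replicate 2 read 10.13 (mean ± SD of 5 arrays). Probe set 192311_at had 7.08 ± 0.16, 6.99 ± 0.15 and 7.20 ± 0.33, where Adult replicate 2 read 6.64. For 174039_at the lethargus minus L4 difference was -0.19 (95% interval -0.47 to 0.08, adjusted p = 0.571). For 192311_at it was -0.09 (95% interval -0.38 to 0.20, adjusted p = 1). Without Adult replicate 2, *let-60* read by 192311_at was lower in lethargus than in Adult by 0.35, from -0.21 with all arrays (adjusted p = 0.0117, with a range of 0.0113 to 0.847 over the alternatives). With all arrays in, that difference was also called with median-centring (-0.46, adjusted p = 0.017), quantile normalization (-0.45, adjusted p = 0.0281), array weights (-0.30, adjusted p = 0.0113) and scaling to the hybridisation controls (-0.49, adjusted p = 0.0196).

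The Raf gene *lin-45* had the clearest change of the kinases, in 1 of its 2 probe sets. Probe set 191672_s_at read 7.25, 7.52, 7.42, 7.25 and 6.97 in L4 and 7.72, 7.94, 8.02, 8.07 and 8.22 in lethargus. Adult arrays gave 8.77, 8.67, 8.95, 8.80 and 8.68 (log2). The stages did not overlap, and Adult replicate 2 lay among the other Adult arrays. *lin-45* read there was 1.64-fold higher in lethargus than in L4 (0.71 ± 0.11 SE, adjusted p = 0.000141) and 1.72-fold lower than in Adult (-0.78 ± 0.11 SE, adjusted p = 2.28e-05). Adult was 2.82-fold above L4 (1.49 ± 0.11 SE, adjusted p = 9.87e-09).

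The other probe set of *lin-45*, 173413_at, had 9.97 ± 0.21 in L4, 10.07 ± 0.11 in lethargus and 10.25 ± 0.13 in Adult (mean ± SD of 5 arrays). Its Adult minus L4 difference of 0.28 was called (adjusted p = 0.0449), but 16 of 29 alternatives removed the call, including leaving out Adult replicate 2 (adjusted p = 0.078) or L4 replicate 3 (adjusted p = 0.125). Lethargus and L4 differed there by 0.10 (95% interval -0.12 to 0.31, adjusted p = 1). The 2 probe sets therefore give different sizes for *lin-45*. The difference of their changes from L4 to Adult was -1.21, at the smallest exact permutation p that 5 arrays against 5 allow (0.00794). It was not called after adjustment (exact permutation, adjusted p = 0.0524), and a pair alone at that p could not be called over 33 tests.

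The MEK gene *mek-2* was lowest in lethargus. Probe set 191728_at read 6.76, 6.92, 6.36, 6.49 and 6.67 in L4 and 6.05, 6.23, 6.15, 6.27 and 6.13 in lethargus. In Adult it read 6.74, 6.54, 6.76, 6.74 and 6.72 (log2). All 5 lethargus arrays lay under all 10 arrays of L4 and Adult, which overlapped each other. *mek-2* was 1.39-fold lower in lethargus than in L4 (-0.47 ± 0.097 SE, adjusted p = 0.00216) and 1.45-fold lower than in Adult (-0.53 ± 0.097 SE, adjusted p = 0.000322). It lay below the midpoint of the other stages by 0.50 (adjusted p = 0.000264), and only 1 member probe set in this comparison had arrays that overlapped neither stage, beside 10.1% of all probe sets. These calls held in the tested alternatives other than a required log2 difference of at least 1.

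Over all members, 4 of 17 probe sets were called against that midpoint, 3 higher in lethargus and 1 lower, beside 41.8% of all probe sets, 18.1% higher and 23.7% lower. Without Adult replicate 2 the count was 9, beside 47% of all probe sets. The second *mek-2* probe set, 188244_s_at, had 6.85 ± 0.21 in L4, 6.63 ± 0.11 in lethargus and 7.10 ± 0.39 in Adult, where replicate 2 read 7.77 (mean ± SD of 5 arrays). It was lower in lethargus than in Adult (-0.47, adjusted p = 0.0292), with no overlap of arrays, and the call was lost without lethargus replicate 1 (adjusted p = 0.0703) or 3 (adjusted p = 0.0636). Its difference between lethargus and L4 was -0.22 (95% interval -0.55 to 0.11, adjusted p = 0.608). Against the midpoint it was -0.34 (adjusted p = 0.0867), and -0.26 without Adult replicate 2 (adjusted p = 0.037).

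The ERK gene *mpk-1* had its smallest differences in its brighter probe set. Probe set 175613_at had 10.52 ± 0.04 in L4, 10.53 ± 0.05 in lethargus and 10.68 ± 0.18 in Adult (mean ± SD of 5 arrays). Its lethargus minus L4 difference was 0.01 (95% interval -0.17 to 0.18, adjusted p = 1), the narrowest interval of the members. With all arrays, neither comparison with Adult was called. Adult minus L4 was 0.16 (adjusted p = 0.211) and lethargus minus Adult was -0.15 (adjusted p = 0.252). Adult replicate 2, at 10.36, was below all other arrays. Without it, Adult minus L4 was 0.24 (adjusted p = 0.00355) and lethargus minus Adult was -0.23 (adjusted p = 0.00467), and both were called. The range over the alternatives was 0.0012 to 1 for the former and 0.00185 to 1 for the latter.

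Probe set 193948_s_at of *mpk-1* read 8.50, 8.59, 8.78, 8.69 and 8.51 in L4 and 8.71, 8.75, 8.92, 9.10 and 9.17 in lethargus. The Adult values were 9.50, 8.32, 9.46, 9.52 and 9.36 (log2). The other 4 Adult arrays lay above both younger stages, and replicate 2 lay below every array. Adult was 1.54-fold above L4 (0.62 ± 0.187 SE, adjusted p = 0.0171). Without Adult replicate 4 the call was lost (adjusted p = 0.0518), as it was by a doubled exact permutation p (0.0952). Lethargus minus L4 was 0.31 and not called (adjusted p = 0.441), and without Adult replicate 2 the same 0.31 was called (adjusted p = 0.0292, with a range of 0.0196 to 0.776 over the alternatives). Lethargus minus Adult was -0.30 (adjusted p = 0.34), and -0.53 without that array (adjusted p = 0.000509).

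The ETS-domain gene *lin-1* was lowest in Adult in both probe sets. Probe set 175607_s_at read 9.89, 10.06, 9.47, 9.84 and 9.71 in L4 and 9.62, 9.59, 9.43, 9.46 and 9.36 in lethargus. Adult arrays gave 9.11, 8.25, 9.03, 8.88 and 8.98 (log2). All Adult arrays were below all others, and the younger stages overlapped. *lin-1* was 1.93-fold lower in Adult than in L4 (-0.95 ± 0.146 SE, adjusted p = 4.98e-05) and 1.56-fold higher in lethargus than in Adult (0.64 ± 0.146 SE, adjusted p = 0.00216). The latter call was lost with median-centring (adjusted p = 0.0713) and with scaling to the hybridisation controls (adjusted p = 0.0682). The lethargus minus L4 difference of -0.30 was not called (adjusted p = 0.247) and was called without Adult replicate 2 (adjusted p = 0.0469, with a range of 0.0216 to 0.53 over the alternatives).

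The other *lin-1* probe set, 173446_s_at, read 7.83, 8.08, 7.70, 7.83 and 7.61 in L4 and 7.99, 8.25, 7.83, 7.79 and 8.09 in lethargus. In Adult it read 7.30, 6.51, 7.19, 7.19 and 7.01 (log2). Again all Adult arrays were below all others. It was 1.93-fold higher in lethargus than in Adult (0.95 ± 0.14 SE, adjusted p = 3.67e-05) and 1.71-fold lower in Adult than in L4 (-0.77 ± 0.14 SE, adjusted p = 0.000276), and it lay above the midpoint by 0.56 (adjusted p = 0.00227). Its lethargus minus L4 difference was 0.18 (adjusted p = 0.73), with the opposite sign to that of the first probe set. Over the 11 pairs of probe sets of 1 gene, 33 tests of unequal change gave 0 calls by an exact permutation test. The 5 closest, at an adjusted p of 0.0524 and the smallest unadjusted p the design allows, were 2 of *lin-1* and 1 each of *itr-1*, *lin-45* and *mek-2*. No test could be called unless more tests than these reached that smallest p, so the 0 calls do not show that probe sets changed equally.

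In groups that did not overlap, 4 of 17 member probe sets were separated between lethargus and L4, 7 between lethargus and Adult and 6 between Adult and L4. The shares over all probe sets were 26.6%, 48.5% and 48.4%.

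Other genes of the pathway were read from lists, with 111 of 114 listed genes measured, each through its brightest probe set. Of these 111, 23 were higher and 17 lower in lethargus than in L4, beside 16% and 15.6% of all genes and 31.6% either way. Against Adult, 38 were higher and 49 lower in lethargus, beside 26.2% and 31%, or 57.3% either way. Between Adult and L4, 48 were higher and 35 lower in Adult, beside 30.8% and 28.7%, or 59.5% either way. These splits also moved with the scaling. Lethargus against Adult became 28 higher and 61 lower with median-centring and 26 and 61 with the hybridisation controls, and Adult against L4 became 61 higher and 27 lower and 64 and 21. The shares of all probe sets called under these scalings are given above with the members. Against the midpoint of L4 and Adult, 66 of the 111 were called, beside 42.4% of all genes, 18.8% higher and 23.6% lower.

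**Figure D5:**
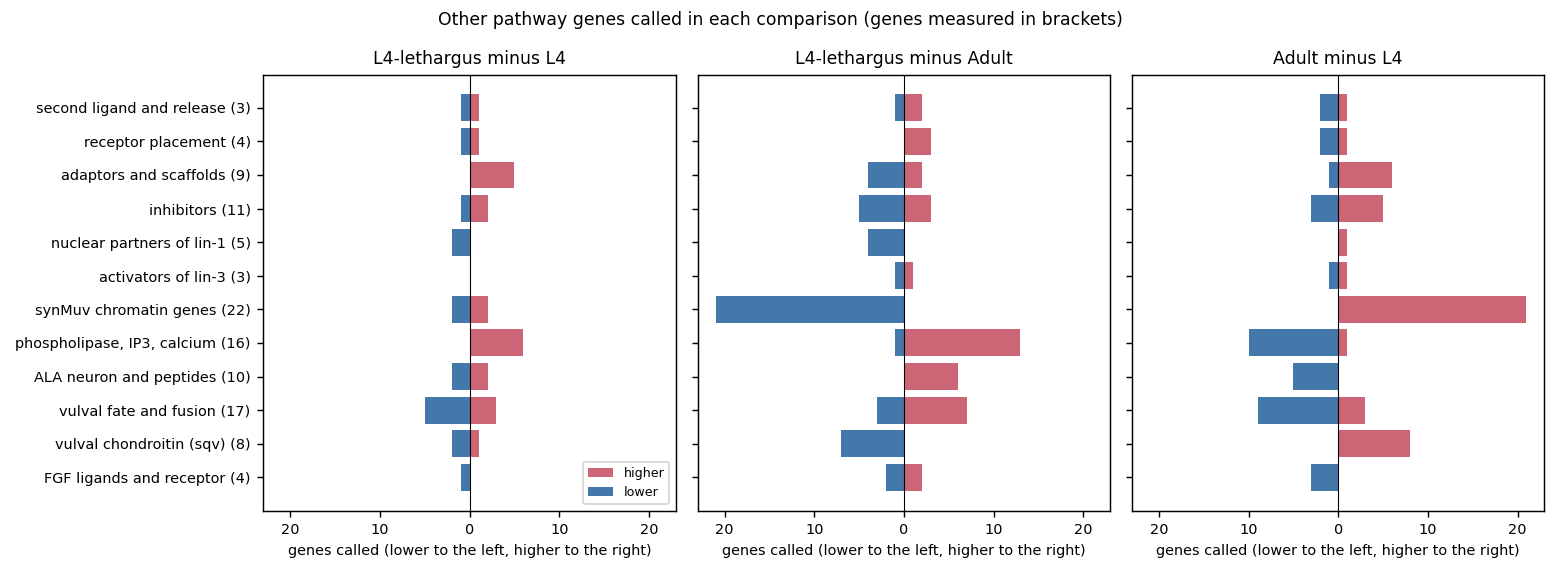
Number of genes called (horizontal axis, higher to the right in red and lower to the left in blue) in each of 12 lists of other pathway genes, in 3 panels for lethargus minus L4, lethargus minus Adult and Adult minus L4; the number measured stands in brackets. The 22 synMuv genes stand out in both panels with Adult, with 21 called in 1 direction, and the phospholipase and calcium list has 13 of 16 higher in lethargus than in Adult.

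Of 4 genes that place LET-23 on the basolateral membrane or anchor it there, 1 was higher and 1 lower in lethargus than in L4. *lin-10* had 8.29 ± 0.07 in L4, 9.31 ± 0.13 in lethargus and 8.45 ± 0.27 in Adult (mean ± SD of 5 arrays, log2), a 2.02-fold rise from L4 to lethargus (adjusted p = 3.01e-06). *lin-2*, whose product binds LET-23 together with LIN-7 and LIN-10, was lower in lethargus than in L4 (-0.33, adjusted p = 0.036) and lower again in Adult (-0.87 against L4, adjusted p = 2.09e-06). The first of these *lin-2* calls was lost with the mean of its probe sets (-0.13, adjusted p = 0.551) and with scaling to the hybridisation controls (-0.26, adjusted p = 0.155).

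Of 9 adaptors and scaffolds, 5 were higher and 0 lower in lethargus than in L4, with a median difference of 0.35 beside 0.00 over all genes. *soc-1*, an adaptor of receptor signalling, rose 1.83-fold (adjusted p = 0.000512), *sem-5*, the Grb2 adaptor, rose 1.49-fold (adjusted p = 0.00798), and *ksr-2*, a scaffold of the Raf, MEK and ERK kinases, rose 1.45-fold (adjusted p = 0.00364). *sem-5* and *ksr-2* were higher again in Adult, by 0.67 and 0.75 in log2 (adjusted p = 0.00118 and adjusted p = 7.44e-05).

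Of 11 measured inhibitors of EGF receptor and Ras signalling, 2 were higher and 1 lower in lethargus than in L4, and 5 were higher and 3 lower in Adult than in L4. *lip-1*, a phosphatase that acts on MPK-1, had 6.32 ± 0.12 in L4, 7.12 ± 0.18 in lethargus and 8.29 ± 0.18 in Adult (mean ± SD of 5 arrays, log2), and both steps were called (adjusted p = 2.05e-05 and adjusted p = 1.23e-07). *dep-1*, a receptor-type phosphatase that acts on LET-23, ran the other way, from 9.32 ± 0.28 to 8.39 ± 0.16 and 7.53 ± 0.12 (adjusted p = 2.54e-05 and adjusted p = 2.59e-05).

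Of 5 measured nuclear partners of the pathway, 0 were higher and 2 lower in lethargus than in L4. The winged-helix gene *lin-31*, whose product partners LIN-1, was lower in lethargus than in L4 (-0.57, adjusted p = 0.00503) and than in Adult (-0.65, adjusted p = 0.000709). *lin-25*, which acts downstream of LET-60, was lower than in L4 (-0.36, adjusted p = 0.0179), a call lost with the mean of the *lin-25* probe sets (-0.28, adjusted p = 0.124), with scaling to the hybridisation controls (-0.29, adjusted p = 0.0723) and without L4 replicate 5 (-0.29, adjusted p = 0.0554).

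Of 3 activators of *lin-3*, 0 were called between lethargus and L4, and 1 was higher and 1 lower in Adult than in L4. *hlh-2*, the E protein that drives *lin-3* in the anchor cell, had 5.81 ± 0.22 in L4, 6.25 ± 0.20 in lethargus and 8.16 ± 0.44 in Adult (mean ± SD of 5 arrays, log2), and was 5.12-fold higher in Adult than in L4 (adjusted p = 1.33e-08). The nuclear receptor gene *nhr-25* had 6.10 ± 0.36, 6.43 ± 0.27 and 5.33 ± 0.39, the last under the background bound, and was at least 1.45-fold lower in Adult than in L4 (adjusted p = 0.00531), a call lost with scaling to the hybridisation controls (-0.43, adjusted p = 0.182). The PAX gene *egl-38* lay below the background bound in all stages. Of 22 synMuv genes, a chromatin group that includes repressors of *lin-3* outside the anchor cell, 21 were higher and 0 lower in Adult than in L4, with a median of 0.86 beside 0.08 over all genes. Against L4, 2 were higher and 2 lower in lethargus. *lin-54* was 3.37-fold and *dpl-1* 3.06-fold higher in Adult than in L4 (adjusted p = 3.83e-08 and adjusted p = 5.77e-08). Of 9 germline markers, 7 were higher and 0 lower in Adult than in L4, beside these counts. Their mean level per array ran from 10.08 to 10.64 in L4, 10.34 to 10.71 in lethargus and 11.08 to 11.23 in Adult, and the part of germline content was not tested.

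Of 16 other genes of phospholipase, IP3 and calcium signalling, 6 were higher and 0 lower in lethargus than in L4, with a median of 0.18. The store-operated calcium channel gene *orai-1* had 9.77 ± 0.11 in L4, 10.88 ± 0.11 in lethargus and 9.76 ± 0.06 in Adult (mean ± SD of 5 arrays, log2), and was 2.16-fold higher in lethargus than in L4 (adjusted p = 1.06e-08) and 2.17-fold higher than in Adult (adjusted p = 4.92e-09). *tpa-1*, a diacylglycerol-responsive protein kinase C, was 2.06-fold higher than in L4 (adjusted p = 3.63e-05). *lfe-2*, an IP3 kinase that lowers IP3, was 1.47-fold higher (adjusted p = 0.000299). Against Adult, 13 of 16 were higher in lethargus and 1 lower, with a median of 0.85 beside -0.08 over all genes. Median-centring left 10 higher with a median of 0.60. Of 10 neuron markers, 7 were higher and 1 lower in lethargus than in Adult, beside these counts. Of 7 intestine markers, 7 were higher in lethargus than in Adult, with a median of 1.09 and a mean level per array of 10.79 to 10.91 in lethargus and 9.81 to 10.03 in Adult. The part of neuronal and intestinal content was not tested.

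Of 10 genes of the ALA neuron and its quiescence peptides, 2 were higher and 2 lower in lethargus than in L4, and 3, the homeobox genes *ceh-10*, *ceh-14* and *ceh-17*, lay below the background bound in all stages. One of the higher and one of the lower calls were of these dim genes. With the mean of its probe sets, *flp-24* was higher in lethargus than in L4 (0.33, adjusted p = 0.0244). *frpr-4* was lower by the same measure (-0.76, adjusted p = 0.000483), and its lethargus mean of 5.22 lay under the background bound. *flp-7*, a peptide gene listed with ALA, had 9.79 ± 0.19 in L4, 10.01 ± 0.14 in lethargus and 7.59 ± 0.14 in Adult (mean ± SD of 5 arrays, log2). *flp-7* was 5.38-fold higher in lethargus than in Adult (adjusted p = 2.21e-11). *nlp-8*, another ALA peptide gene, was 2.34-fold higher in lethargus than in Adult (adjusted p = 3.97e-06). Neither *flp-7* nor *nlp-8* was called between lethargus and L4 with the mean of its probe sets (0.22, adjusted p = 0.195, and 0.14, adjusted p = 0.991). Of the 10 genes, 6 were higher and 0 lower in lethargus than in Adult. Of 10 neuron markers, 7 were higher and 1 lower there, with a median of 1.12, and the part of neuronal content was not tested.

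Of 17 genes of vulval fate, shape and cell fusion, 3 were higher and 5 lower in lethargus than in L4, and 3 were higher and 9 lower in Adult than in L4. The fusogen gene *eff-1* was 3.17-fold lower in lethargus than in L4 (adjusted p = 3.32e-06) and at least 4.46-fold lower in Adult (adjusted p = 2.61e-08). *lin-29*, a zinc finger gene of the larval to adult switch that the vulva also uses, fell by 1.35 on the log2 scale from L4 to lethargus (adjusted p = 0.000414). Of 6 epidermis markers, 5 were lower in lethargus than in L4, and 3 were lower in Adult than in L4. Of 8 *sqv* genes, which make the chondroitin that opens the vulval lumen, 8 were higher and 0 lower in Adult than in L4. In that comparison 7 of 9 germline and 10 of 10 oocyte markers were also higher, and the part of these tissues in the results for vulval genes was not tested. *sqv-1* was 2.79-fold higher in lethargus than in L4 (adjusted p = 2.48e-07) and *sqv-7* 1.36-fold lower (adjusted p = 0.00565), the latter not called with scaling to the hybridisation controls (-0.38, adjusted p = 0.0865).

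The FGF arm reaches LET-60 from another receptor, EGL-15. Of its 4 listed genes, 0 were higher and 1 lower in lethargus than in L4. *egl-15* had 8.0 ± 0.34 in L4, 5.87 ± 0.20 in lethargus and 6.40 ± 0.15 in Adult (mean ± SD of 5 arrays, log2), and was 4.36-fold lower in lethargus than in L4 (adjusted p = 1.1e-08). Of 6 epidermis markers 5 were lower in that comparison, with a mean level per array of 10.18 to 10.67 in L4 and 7.6 to 8.53 in lethargus. Their falls were unequal. Mean levels went from 12.24 to 6.90 for *dpy-7*, also a stage marker, and from 13.08 to 10.34 for *rol-6*. They went from 9.87 to 9.37 for *lin-26* and from 9.84 to 9.78 for *elt-3*. The part of these markers in the *egl-15* difference was not tested. *let-23*, read above, was higher in that comparison.

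The genes whose pattern was closest to that of the 4 members with the widest range of stage means in their brightest probe set were found by the root mean square difference over the 15 arrays after centring each gene on its own mean, among 17117 other genes. For *lin-3* the nearest were *alg-5*, at 0.165 log2 units, and *C06A1.4*, at 0.18, where the median gene was at 1.05. For *lin-1* they were *ckk-1*, at 0.126, and *egl-19*, at 0.135, with a median of 0.566. For *itr-1* they were *rskn-2*, at 0.0936, and *atrn-1*, at 0.107, with a median of 0.532. For *plc-3* they were *erp-44.1*, at 0.13, and *T26C12.1*, at 0.134, with a median of 0.535. *alg-5* had 7.59 ± 0.36 in L4, 8.69 ± 0.22 in lethargus and 9.78 ± 0.57 in Adult (mean ± SD of 5 arrays, log2).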

How the data were processed

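The deposited values are on a log2 scale and were made by the authors with RMA, per the submitters' processing notes. No version is stated there. RMA subtracts background, equalises the distributions of arrays and summarises the probes of each set, so it evens out total signal and compresses dim probe sets. The sources used here do not name the build behind the probe annotation. Amplification used NuGEN Ovation V2, an RNA integrity number above 5 was required, and 1 sample per stage was eliminated, per the labels' protocols.

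Stage means over the 15 arrays, with 1 shared spread, were fitted by lmFit and eBayes (limma 3.58.1, R 4.3.3). As in the series design, p was multiplied by 2, and it was then adjusted by Benjamini-Hochberg over 22548 probe sets, with calls at 0.05 or less. R/maanova, which that design names, was not run. An adjusted p is limma's wherever the sentence does not name an exact permutation test. Background was bounded at 5.56 log2, which 95% of values of 32 unspiked control probe sets do not exceed, a bound chosen after seeing the data. A dimmer stage under the bound gives a fold written as at least, and a pair of stages both under it gives none. Levels of different probe sets were not compared.

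The members, lists and named-gene rule were chosen with earlier results of these data known. The rule named all member probe sets, at most 3 called genes per list and comparison with the largest differences, 4 stage markers, and the 4 genes nearest in pattern to each of 4 members. On simulated data for lethargus against L4 (22548 probe sets), 60% of 1.5-fold, 92% of 2-fold and 100% of 4-fold changes were recovered, with 5 false calls. Only 50 probe sets per fold size were changed there, with independent normal noise and no outlying array. In the real comparison 30.9% of probe sets were called, so these rates may not hold for the real arrays. Alternatives were other scalings, a filter on dim probe sets, p not doubled, only the compared stages, another prior, array weights, a replicate block, no shared probes, a fold minimum, mean probe sets, exact permutation tests and each array left out. Scaling to hybridisation controls and joint removal of 3 arrays were chosen after seeing the data. The labels do not say whether pools of a stage came from separate cultures, and p-values then measure only the spread between pools. The 5 arrays per stage limit the precision. Figures were drawn with matplotlib 3.10.9.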

Additional observations from a re-analysis of the deposited data

Results flagged for a closer look

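Arrays far from the other 4 of their stage were sought with Dixon's test for the 17 member probe sets and for *lin-3* minus *let-23*. Of 54 groups of 5 arrays, 15 held such an array, where chance alone marks about 1 in 20, or 2.7 of 54. Adult replicate 2 accounted for 11 of the 15.

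Adult replicate 2 was low for *lin-3* (7.93, others 9.09 to 9.35), *plc-3* (6.54, others 7.83 to 7.95), *itr-1* 193676_s_at (10.07, others 10.54 to 10.72) and *mpk-1* 193948_s_at (8.32, others 9.36 to 9.52). It was also low for *mpk-1* 175613_at (10.36, others 10.70 to 10.78), *let-60* 174039_at (10.13, others 10.78 to 10.94) and *let-60* 192311_at (6.64, others 7.26 to 7.50). The same held for *lin-1* 175607_s_at (8.25, others 8.88 to 9.11) and *mek-2* 191728_at (6.54, others 6.72 to 6.76). It was high for *mek-2* 188244_s_at (7.77, others 6.83 to 7.05). Its difference of *lin-3* and *let-23* was 1.21, against 2.53 to 2.99.

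L4 replicate 2 was low for *itr-1* 193703_s_at (8.38, others 9.61 to 9.91) and high for *itr-1* 193688_s_at (5.93, others 5.49 to 5.54). L4 replicate 3 was low for *let-23* (6.10, others 6.46 to 6.58). L4-lethargus replicate 1 was low for *lin-3* (7.12, others 7.61 to 7.72). All values are log2, and the cause of these distances was not tested.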

How the results depend on the processing

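Of the 1890 values of member probe sets under the alternatives, 1678 kept their direction and side of the threshold, 93 lost a call, 74 gained one and 45 turned sign. Member probe sets called numbered 4, 10, 8 and 4 for lethargus against L4, lethargus against Adult, Adult against L4 and lethargus against the midpoint. Leaving out shared-probe probe sets left 7 member probe sets measured and gave 2, 2, 2 and 1. The shares over all probe sets there were 29.1%, 53.5%, 56% and 38.6%. A log2 difference of at least 1 gave 0, 1, 2 and 0, beside 10.4%, 19.2%, 23.9% and 8.96%. Array weights gave 7 for the first and 7 for the last, beside 39.8% and 50.3%. Leaving out single arrays gave 3 to 7, 7 to 13, 5 to 9 and 4 to 9. The highest first and last counts, 7 and 9, came without Adult replicate 2, beside 35.3% and 47% of all probe sets. The 5 came without Adult replicate 4, beside 56.1%. Leaving out 3 arrays together gave 7 for the midpoint, beside 43.6%. The cause of these shifts was not tested beyond the smaller tables and samples themselves. The pathway counts, of 111 genes measured, were 40, 87, 83 and 66. Without shared probes only 82 pathway genes were measured, and the counts were 24, 58, 55 and 39. With the minimum of 1 they were 8, 29, 33 and 5. Single arrays left out gave 32 to 49, 86 to 90, 80 to 85 and 53 to 73. Unequal change of probe sets of 1 gene, called 0 times, was called 11 times with quantile normalization, 7 with cyclic loess, 6 without L4 replicate 2, 6 without L4 replicate 3 and 8 without Adult replicate 2.

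Of the called probe sets between lethargus and Adult, 44.4% were higher in lethargus, against 25% with median-centring and 23.6% with the hybridisation controls. Between Adult and L4 the share higher in Adult was 52.9%, 69.7% and 76.7%, and for the midpoint 43.4%, 24.8% and 30.1%. The median of all probe sets for Adult minus L4 moved from 0.08 to 0.29 and 0.43, and for the midpoint from -0.07 to -0.22 and -0.18.

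*lin-3* minus *let-23* ranged over single arrays left out from 0.48 to 0.77, -2.07 to -1.62 and 2.22 to 2.66. The 15 correlations of same-numbered deviations ran from -0.24 to 0.132. They gave no clear sign of pairing by replicate number, but cannot exclude it, since differently numbered arrays were not compared. With the replicate block, *lin-3* minus *let-23* kept 0.60, -1.74 and 2.34 but could not reach the threshold (adjusted p = 0.125, 0.0938 and 0.0938, exact sign-flip permutation). The block removed 5 member calls and added 1.

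Signs turned mostly in small differences that were not called. *mpk-1* 175613_at, lethargus minus L4 (0.01), gave -0.04 with median-centring, 0.00 with array weights and -0.01 to 0.02 with single arrays left out, and 0.03 for the midpoint with cyclic loess. *mpk-1* 193948_s_at for the midpoint gave -0.14 with median-centring, 0.00 with quantile normalization, -0.06 with array weights or without 3 arrays, -0.10 with the hybridisation controls and -0.11 to 0.06 with single arrays left out. *itr-1* 193688_s_at gave -0.02 and -0.01 with median-centring and quantile normalization and -0.02 to 0.11 with single arrays left out for lethargus minus L4, and its called Adult minus L4 difference became 0.01 with the hybridisation controls. *let-60* 174039_at, lethargus minus Adult, gave -0.19 with median-centring, -0.08 with array weights, -0.21 with the hybridisation controls, -0.11 without 3 arrays and -0.08 to 0.12 with single arrays left out, and it gave 0.03 for the midpoint with cyclic loess and 0.09 for Adult minus L4 with the hybridisation controls. *let-60* 192311_at, lethargus minus L4, gave 0.02 with array weights and 0.01 without 3 arrays. *plc-3*, Adult minus L4, gave 0.04, 0.01, 0.11 and 0.17 with median-centring, quantile normalization, array weights and the hybridisation controls, 0.14 without 3 arrays and -0.25 to 0.10 with single arrays left out. For the midpoint, *lin-45* 173413_at gave 0.02 with quantile normalization and 0.06 with cyclic loess, and *lin-45* 191672_s_at gave 0.04 with array weights, 0.05 without 3 arrays and -0.09 to 0.04 with single arrays left out. *let-23*, Adult minus L4, gave -0.07 with array weights and -0.04 to 0.09 with single arrays left out, and *mek-2* 191728_at -0.01 to 0.13. Of other genes, *dpy-7*, lethargus minus Adult, gave -0.13, -0.12 and -0.16 with median-centring, quantile normalization and the hybridisation controls and -0.04 to 0.26 with single arrays left out. *lin-42* for the midpoint gave 0.01 with cyclic loess and -0.18 to 0.01 with single arrays left out, and the called *unc-54* difference of Adult and L4 became 0.13 with the hybridisation controls. The cause was not tested.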
